A study of Homo sapiens with 3 samples.

Results

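KKU-213L5, a subline of KKU-213 known for its strong spread, was set against KKU-213 in the same high glucose. KKU-213 is an established human line of cholangiocarcinoma, the cancer that arises from the epithelium of bile ducts. The L5 library was made from KKU-213L5 in DMEM with 25 mM glucose, and the HG library from KKU-213 in DMEM with 25 mM glucose. A further KKU-213 library, NG, from DMEM with 5.6 mM glucose, stands beside them as values only. All media held fetal bovine serum and antibiotics, and cells were taken at confluence. KKU-213 had spent at least 5 passages in its glucose level, a figure the labels do not give for the subline, and they name no drug and no engineered change. The labels give neither how the subline was made nor whether it is 1 clone. Of the 58892 gene IDs that all 3 libraries list, spike-in RNA aside, 13129 were compared: those with an OK status in L5 and HG, a longest isoform of at least 300 bases, and at least 1 FPKM (fragments scaled to transcript length and library size, so levels of different genes can be compared) in 1 of the 2 libraries. HIST1H2BF, at 1.00 FPKM in L5 and 0.461 in HG, was the last gene inside that minimum, and PTGER2, at 0.487 FPKM in L5 and 0.9995 in HG, the first outside it.

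Each side had 1 library, so no difference below has a replicate check and no test across cultures exists. A gene is called higher or lower in L5 by a size rule, a log2 ratio of (L5 FPKM + 1) over (HG FPKM + 1) of at least 1 in size, and all log2 ratios below are of that kind and understate differences near 0. The error after ± is a counting standard error derived from the interval bounds of each FPKM, and says nothing about the spread between cultures. Because HG is the only KKU-213 library at 25 mM glucose, a difference of L5 cannot be told apart from a deviation of the HG library, and the NG value is given for that reason. In a library of bulk RNA, fewer cells of a kind and less RNA per cell cannot be told apart either. The libraries held an estimated 68.7 M fragments for L5, 76.0 M for HG and 47.1 M for NG. Of 20 cholangiocyte markers found, 11 reached 1 FPKM in L5, 11 in HG and 10 in NG, with summed levels of 2729, 2424 and 2521 FPKM. Of 21 hepatocyte markers 1 reached 1 FPKM in L5, 1 in HG and 2 in NG, and of 14 fibroblast markers 1 did in each. Of 14 leukocyte and endothelial markers 2 reached it in L5, 2 in HG and 1 in NG.

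A carcinoma cell that spreads has to let go of its neighbours, cross the basement membrane and the matrix, and settle elsewhere. Laminins and the integrins of hemidesmosomes hold epithelial cells to the basement membrane and also carry their migration across it. Urokinase turns plasminogen into plasmin, which cuts matrix, and many serpins, though not all, hold such proteases in check. Vimentin filaments and LIM proteins shape a moving cell, while ligands of the EGF receptor and chemokines act on the cell itself and on its surroundings. Fatty acids and cholesterol, made under control of the SREBP transcription factors, supply new membrane.

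By the size rule 226 genes (1.72%) were higher in L5 than in HG and 67 (0.510%) were lower, 2.23% in either direction. At these shares, none or 1 gene past the rule in a list below says little about that list. Over all 13129 genes the log2 ratio had a median of -0.01, the middle 50% ran from -0.18 to 0.18, and 88.2% lay within 0.5 of 0. Of the higher genes 223 had deposited intervals that did not overlap, 134 reached 5 FPKM, and 24 had a log2 ratio of at least 2. Of the lower genes these counts were 58, 36 and 9. The higher genes held 177 protein-coding and 35 long noncoding genes, and the lower 51 and 8. Scaled to 53 spike-in RNAs, whose median log2 ratio of L5 over HG was 0.42, the median of all genes moved to -0.36, and 89 genes were higher and 233 lower, so the higher share was 27.6% in place of 77.1%.

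**Figure D1:**
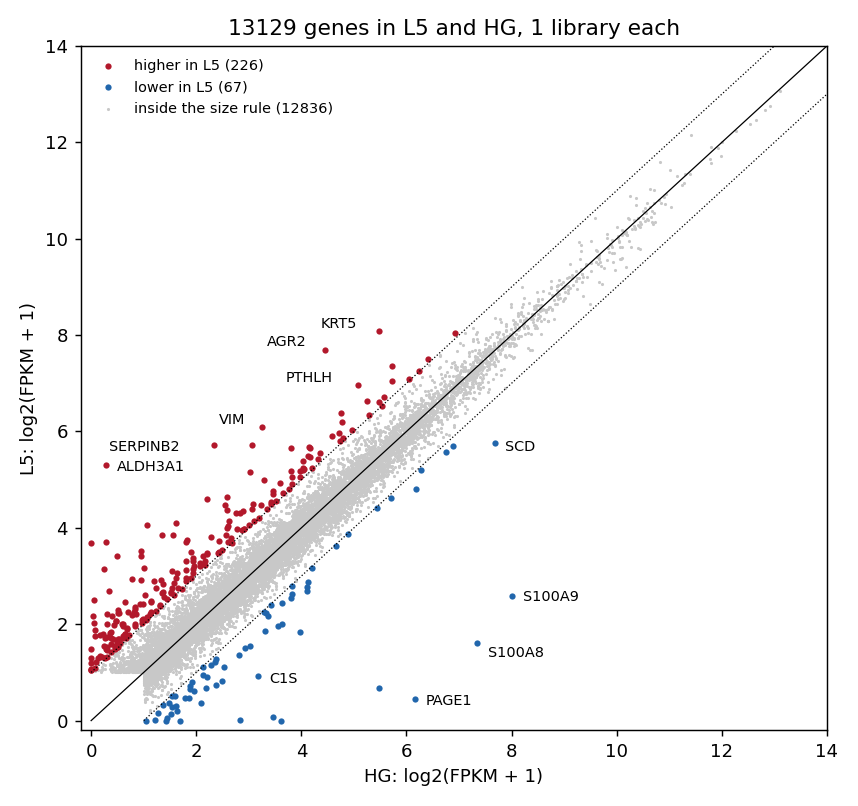
Level of each of 13129 genes in L5 (vertical) and HG (horizontal), as log2(FPKM + 1), 1 library each; the solid line marks equal levels and the dotted lines the size rule. The 226 genes above the upper dotted line reach farthest from it with ALDH3A1, and S100A8, S100A9 and PAGE1 lie far below the lower one.

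ALDH3A1, MAGEA11 and SERPINB2 led the 12 highest ratios, among which VIM was higher in NG, at 87.4 FPKM, than in L5, at 67.0. The other 13 of the 25 named higher genes stood above both HG and NG in L5. SULF2, an enzyme that removes sulfate from heparan sulfate outside the cell, was listed at 13.4 FPKM in L5, 1.94 in HG and 7.59 in NG, a log2 ratio of L5 over HG of 2.30 ± 0.10. IGFBP3, which binds insulin-like growth factors, was listed at 21.2 FPKM in L5, 4.88 in HG and 7.88 in NG (log2 ratio 1.92 ± 0.07). PTHLH, the parathyroid hormone-related protein that tumours can secrete, was listed at 123 FPKM in L5, 32.5 in HG and 16.7 in NG (1.89 ± 0.04). L5 held the highest level of each of these 3 genes, and for PTHLH both KKU-213 libraries lay well below it. INHBA, the subunit of activin A, was listed at 49.6 FPKM in L5, 13.0 in HG and 25.0 in NG (1.86 ± 0.04). GJB2, a gap junction protein, was listed at 31.0 FPKM in L5, 8.74 in HG and 6.12 in NG (1.72 ± 0.05). KCNMA1, a potassium channel opened by calcium, was listed at 6.45 FPKM in L5, 1.30 in HG and 1.99 in NG (1.70 ± 0.13). Here too L5 stood above both other libraries.

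Other genes of this group had NG values close to L5. RAB37, a small GTPase of secretory vesicles, was listed at 6.6 FPKM in L5, 0.932 in HG and 6.35 in NG (log2 ratio 1.97 ± 0.08). TRBC2, a constant segment of the T cell receptor beta gene, was listed at 34.5 FPKM in L5, 7.17 in HG and 32.4 in NG (2.12 ± 0.10), and its deposited intervals did not hold the listed FPKM. For both genes HG was the low library and L5 and NG lay together. SLITRK6, a membrane protein best known from neurons, and PLCH2, a phospholipase C, lay between, at 12.5 and 12 FPKM in L5, 2.54 and 2.47 in HG and 7.51 and 7.85 in NG. ABCA10, a transporter of the ABC family, was listed at 19.5 FPKM in L5, 5.01 in HG and 10.7 in NG (1.77 ± 0.10). In 10 of the 50 genes that the naming rule picked, among them ALDH3A1, SERPINB2, SOHLH2, GSTP1, S100A9, PAGE1 and SCD, an interval did not hold its FPKM, and the ± values of those genes are less certain.

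Among the lowest ratios after S100A8, S100A9 and PAGE1, BCAM, a laminin receptor, was listed at 2.62 FPKM in L5, 8.92 in HG and 0.821 in NG (log2 ratio -1.46 ± 0.09). DAG1, the dystroglycan that also binds laminin, was listed at 23.6 FPKM in L5, 51.3 in HG and 26.8 in NG (-1.09 ± 0.04). MAN1A1, a mannosidase that trims N-glycans, was listed at 1.84 FPKM in L5, 6.62 in HG and 1.43 in NG (-1.43 ± 0.05). In these 3 genes HG was the high library. DAG1 lies on chromosome 3 and MAN1A1 on chromosome 6, whose genes stood lower in L5 as a whole. CALB2, the calcium binder calretinin, was listed at 5.47 FPKM in L5, 16.2 in HG and 23 in NG (-1.41 ± 0.07). PRTFDC1, a relative of the purine salvage enzyme HPRT, was listed at 1.57 FPKM in L5, 6.04 in HG and 9.47 in NG (-1.46 ± 0.12). SCARB1, a receptor for high-density lipoprotein, was listed at 6.32 FPKM in L5, 16.4 in HG and 15.0 in NG (-1.25 ± 0.06). For these L5 was below both KKU-213 libraries.

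**Figure D2:**
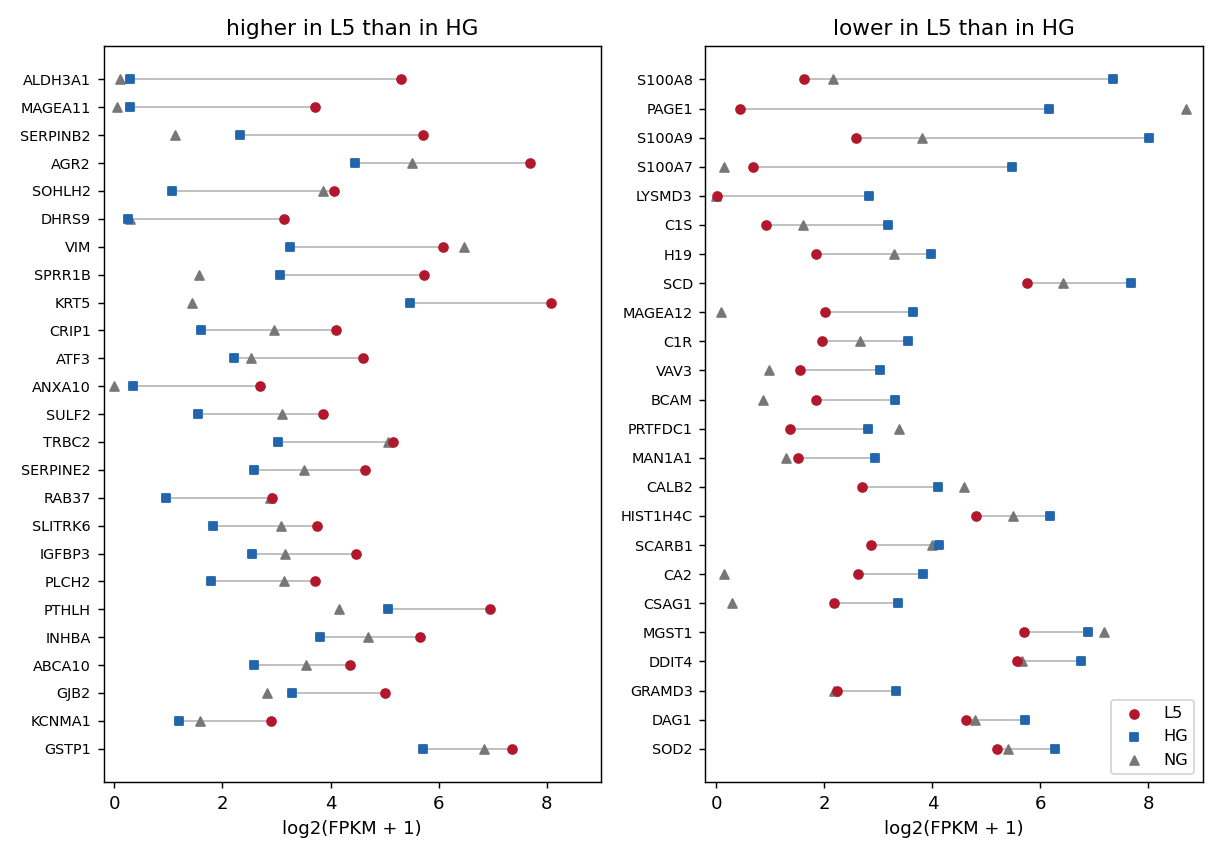
Level of 25 genes higher (left) and 24 genes lower (right) in L5 than in HG, as log2(FPKM + 1), in L5 (circles), HG (squares) and NG (triangles), 1 library each; a grey line joins L5 and HG. PTHLH, INHBA and GJB2 are highest in L5, whereas RAB37 and TRBC2 have NG beside L5.

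Laminin-332 and hemidesmosome genes stood above HG in L5. Of 13 measured genes of hemidesmosomes and laminins 2 were higher, none was lower and the median log2 ratio was 0.38, against -0.01 over all genes; under spike-in scaling the list's median was -0.03 and none of its genes was higher. LAMA3 (chr18:21269407-21535030 on GRCh37), the alpha chain of laminin-332, was listed at 131 FPKM in L5, 51.5 in HG and 80.9 in NG (1.33 ± 0.02). COL17A1, the transmembrane collagen of hemidesmosomes, was listed at 182 FPKM in L5, 84.0 in HG and 72.8 in NG (1.1 ± 0.02). LAMB3, the beta chain of laminin-332, stood below the size rule at 96.0 FPKM in L5, 55.7 in HG and 65.9 in NG (0.78 ± 0.02). LAMA3 and LAMB3 were thus both highest in L5. The laminin-binding integrin chain ITGA6 was listed at 166 FPKM in L5, 85.1 in HG and 155 in NG (0.95 ± 0.02), and the collagen-binding ITGA2 at 48.8, 25.7 and 43.5 FPKM (0.90 ± 0.02). DST, a plakin that ties hemidesmosomes to keratin, went the other way at 90.7 FPKM in L5, 137 in HG and 41.3 in NG (-0.59 ± 0.02), and lies on chromosome 6. Without chromosomes 3, 6 and 9 the list's median was 0.66. Desmosomes (median 0.01 over 8 genes, -0.40 under spike-in scaling) and adherens and tight junctions (0.08 over 26, and -0.33) had no gene past the size rule.

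Among genes of plasminogen activation, serpins and related protease genes, some serpins, the inhibitor TFPI and 1 protease were higher in L5. Of 29 measured genes of that list 5 were higher and none lower, with a median of 0.28, or -0.10 under spike-in scaling, where 4 stayed higher and 1 was lower. SERPINE2, the inhibitor protease nexin-1, was listed at 23.9 FPKM in L5, 4.97 in HG and 10.3 in NG (2.06 ± 0.07), and SERPINB5, known as maspin, at 104, 46.3 and 53.9 FPKM (1.15 ± 0.03). The trypsin gene PRSS3 was listed at 15.4 FPKM in L5, 5.05 in HG and 21.5 in NG (1.44 ± 0.11), and TFPI, which inhibits tissue factor, at 4.59, 1.21 and 4.21 FPKM (1.34 ± 0.15). The fifth was SERPINB2. The urokinase gene PLAU stood just inside the size rule at 264 FPKM in L5, 138 in HG and 260 in NG (0.93 ± 0.02), and its receptor PLAUR at 14.2, 8.11 and 12.8 FPKM (0.73 ± 0.07). The tissue-type activator PLAT was listed at 7.58 FPKM in L5, 13.7 in HG and 6.71 in NG (-0.78 ± 0.07). So the serpins SERPINB2, SERPINE2 and SERPINB5 were highest in L5, while PLAU in L5 was level with NG.

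Of 14 cathepsins and cystatins 2 were higher, the lysosomal proteases CTSL1 and CTSS, both with a log2 ratio of 1.41. CTSL1 was listed at 71.9 FPKM in L5, 26.5 in HG and 65.9 in NG, and CTSS at 15.0, 5.02 and 13.6 FPKM. CTSL1 and PRSS3 lie on chromosome 9, whose genes had a median ratio of 0.23. That shift did not cover the whole chromosome, since the medians over its first 50 Mb were 0.08 and 0.03. Of 16 metalloproteinases and inhibitors MMP28 was the 1 past the rule, at 6.49 FPKM in L5, 2.51 in HG and 3.43 in NG (1.09 ± 0.14). Under spike-in scaling the cathepsin list had 1 higher and 1 lower gene and a median of -0.18 in place of 0.23, and the metalloproteinase list none higher, 1 lower and a median of -0.19 in place of 0.19. The inhibitor TIMP2 was listed at 29.3 FPKM in L5, 14.3 in HG and 35.5 in NG (0.98 ± 0.04).

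Annexins, which bind membranes in the presence of calcium, stood above 0 in all 12 measured genes, with 2 past the size rule, a median of 0.58, and 0.17 under spike-in scaling. With a pseudocount of 5 none of them was past the rule. ANXA6 was listed at 8.94 FPKM in L5, 2.50 in HG and 53.5 in NG (1.51 ± 0.09), and ANXA10 at 5.45 FPKM in L5, 0.272 in HG and 0 in NG (2.34 ± 0.12). ANXA1 was listed at 1371 FPKM in L5, 767 in HG and 842 in NG, and ANXA5 at 191, 97.9 and 188 FPKM. The 3 ANXA8 copies in the list share reads, so their split is uncertain. The S100 proteins, another calcium-binding family, went the other way in part: 4 of 15 were lower and none higher, while the median was -0.01, or 0.0005 after scaling to TPM, and the mean -0.996. S100A8 was listed at 2.07 FPKM in L5, 162 in HG and 3.46 in NG, and S100A9 at 5.01, 257 and 13.0 FPKM. S100A7 was listed at 0.600 FPKM in L5, 43.6 in HG and 0.104 in NG. The fourth was S100A12, their neighbour on chromosome 1, at 0.144 FPKM in L5, 2.12 in HG and 0.385 in NG (-1.45 ± 0.17). In all 4 genes HG was the high library. S100A14, on the same chromosome, was listed at 160 FPKM in L5, 115 in HG and 1.46 in NG, so L5 and HG lay together there. S100A10, the partner of annexin A2, was listed at 509 FPKM in L5, 292 in HG and 546 in NG (0.80 ± 0.03).

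Among 11 measured mesenchymal genes and EMT factors VIM, vimentin, alone passed the rule, at 67.0 FPKM in L5, 8.55 in HG and 87.4 in NG (2.83 ± 0.06). The list's median was 0.62, and 0.21 under spike-in scaling. SNAI2, the factor Slug, was listed at 55.1 FPKM in L5, 30.7 in HG and 38.3 in NG (0.82 ± 0.03). Of 35 actin and LIM proteins 2 were higher, both LIM proteins: CRIP1 and FHL1, the second at 5.76 FPKM in L5, 1.36 in HG and 4.20 in NG (1.52 ± 0.11). Of 18 surface adhesion genes and tetraspanins PODXL, a sialomucin, was higher at 5.36 FPKM in L5, 1.56 in HG and 14.3 in NG (1.31 ± 0.07) and BCAM lower; under spike-in scaling none was higher and 2 were lower. Of 14 genes known as metastasis suppressors 1 was past the rule, the actin-severing GSN, on chromosome 9, at 35.7 FPKM in L5, 15.4 in HG and 30.8 in NG (1.16 ± 0.04). Under spike-in scaling none of that list was higher and 2 were lower, with a median of -0.36 in place of 0.05. CDH1, the E-cadherin gene of the same list, was listed at 77.1 FPKM in L5, 53.2 in HG and 53.1 in NG.

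Squamous genes were higher in 3 of 18, KRT5, SPRR1B and SPRR1A, with a median of 0.28, or -0.09 under spike-in scaling, where 2 were higher and 1 lower. KRT14, the usual partner of KRT5, was listed at 6.27 FPKM in L5, 7.70 in HG and 0.252 in NG (-0.26 ± 0.09), and TP63, the master factor of basal cells, at 73.6, 79.3 and 30.6 FPKM (-0.11 ± 0.02). KRT5 at 270 FPKM in L5 thus stood without a like difference in either gene. Of 6 simple keratins none was past the rule.

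**Figure D3:**
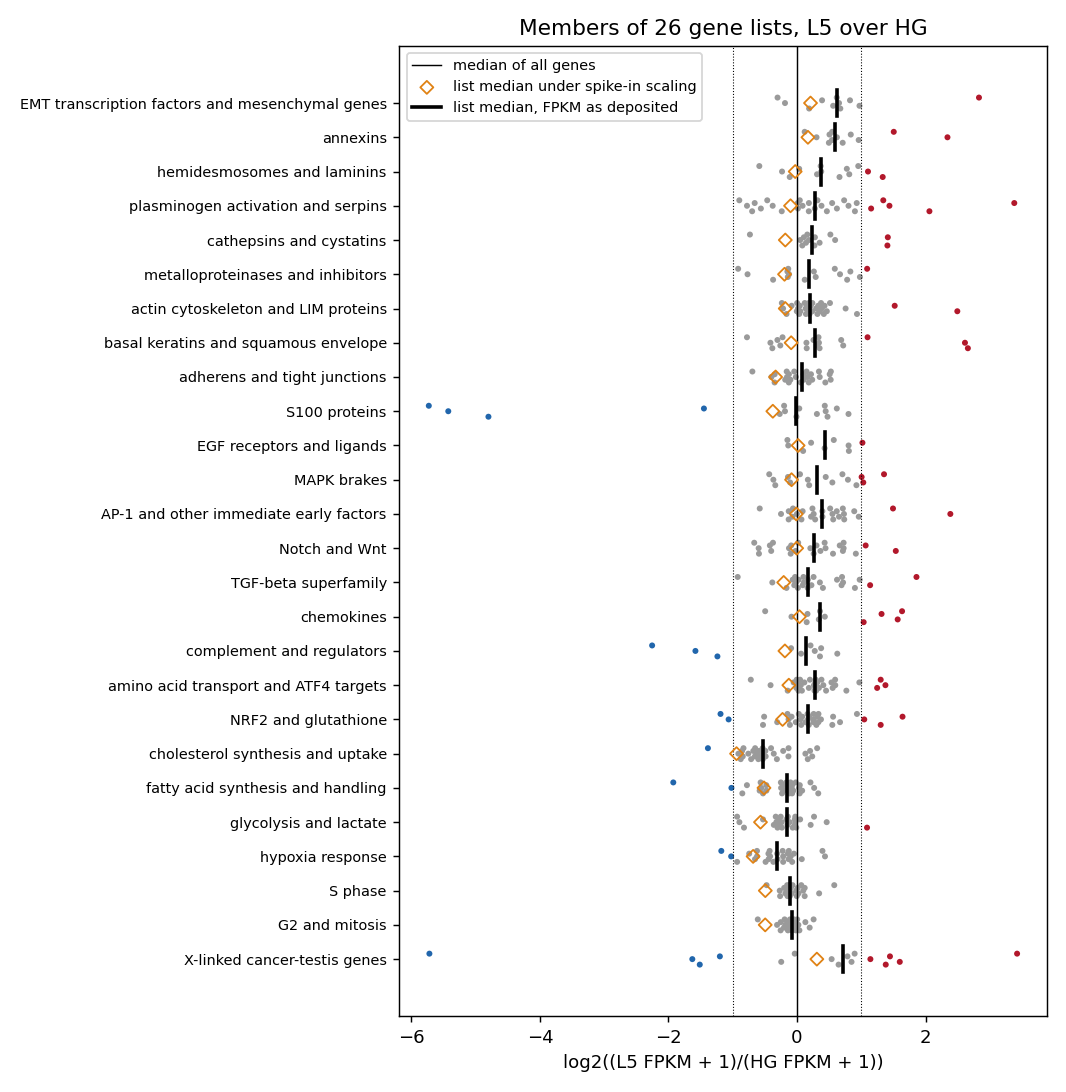
Log2 ratio of L5 over HG (horizontal) for each measured member of 26 gene lists; points past the size rule are red (higher) or blue (lower), bars are list medians, diamonds the medians under spike-in scaling. With FPKM as deposited the mesenchymal and annexin lists lie farthest to the right of all genes among lists with a one-sided count and the cholesterol list farthest to the left; under spike-in scaling the hemidesmosome, plasminogen, squamous, MAPK brake and AP-1 medians are among those that change sign, and the mesenchymal, annexin and chemokine medians do not.

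Ligands of the EGF receptor and phosphatases that curb MAP kinases held 4 genes that were higher in L5. Of 9 measured ligands, receptors and sheddases AREG (amphiregulin) passed the rule, at 151 FPKM in L5, 74.0 in HG and 25.0 in NG (1.02 ± 0.04); it has a near-identical second gene ID, AREGB, that was listed at 135, 65.3 and 22.3 FPKM, so the split is uncertain. HBEGF was listed at 41.6 FPKM in L5, 23.3 in HG and 11.8 in NG, and EREG at 122, 69.4 and 37.0 FPKM. All 3 ligands were highest in L5, then HG, then NG, and the list's median was 0.43, or 0.02 under spike-in scaling. None of the list was higher under spike-in scaling or with a pseudocount of 5. Of 16 brakes of MAP kinase signalling 3 phosphatase genes were higher, and the median was 0.32, or -0.08 under spike-in scaling, where none was. With a pseudocount of 5 the list had 1 higher gene, and under median or upper quartile scaling 2. DUSP4 was listed at 43.8 FPKM in L5, 16.5 in HG and 45.9 in NG (1.35 ± 0.03). DUSP1 was listed at 36.8 FPKM in L5, 17.5 in HG and 24.2 in NG (1.03 ± 0.05), and DUSP10 at 17.5, 8.21 and 8.78 FPKM (1.01 ± 0.06).

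Of 27 AP-1 and other immediate early factors ATF3 and FOSB were higher and none lower, with a median of 0.39, or -0.01 under spike-in scaling. FOSL1, the AP-1 subunit Fra-1, was listed at 124 FPKM in L5, 75 in HG and 133 in NG (0.71 ± 0.03). In the Notch and Wnt list 2 of 25 were higher, the Notch target HES1, on chromosome 3, at 50.3 FPKM in L5, 16.7 in HG and 23.1 in NG (1.54 ± 0.06) and the Notch ligand JAG1 at 32.1, 14.8 and 14.5 FPKM (1.07 ± 0.03). HES1 was thus higher on a chromosome whose genes stood lower. In the TGF-beta superfamily 2 of 26 were higher, INHBA and BMP4, the second at 5.34 FPKM in L5, 1.88 in HG and 11.7 in NG (1.14 ± 0.12). FST, follistatin, which binds activin, was listed at 266 FPKM in L5, 161 in HG and 41.7 in NG (0.72 ± 0.02). Under spike-in scaling 1 gene of the Notch and Wnt list was higher, and 1 higher and 1 lower in the TGF-beta list.

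Chemokines, which draw neutrophils and lymphocytes, were higher in L5 in 4 of 11 measured genes and lower in none, with a median of 0.36, or 0.04 under spike-in scaling, where 2 were higher. With a pseudocount of 5 the count was 2 as well. IL8 (chr4:74606223-74609433 on GRCh37), the neutrophil chemokine CXCL8, was listed at 82.4 FPKM in L5, 25.9 in HG and 41.5 in NG (1.63 ± 0.05). CXCL3 was listed at 7.58 FPKM in L5, 1.90 in HG and 5.05 in NG (1.57 ± 0.11), and CXCL2 at 26.9, 12.6 and 23.9 FPKM (1.04 ± 0.07). CCL20, a ligand of CCR6, was listed at 19.8 FPKM in L5, 7.37 in HG and 21.8 in NG (1.32 ± 0.08). Only IL8, CXCL2 and CXCL3 of these 4 were highest in L5. The neighbours CXCL1 (15.1 FPKM in L5, 13.4 in HG, 37.0 in NG) and CXCL5 (18.2, 13.2 and 49.3 FPKM) were highest in NG and did not pass the rule between L5 and HG. CXCL1, CXCL2 and CXCL3 are close copies and may share reads.

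The promoters of these chemokines are shown because the NF-kB motif GGNNTTTCC, in either direction, stood in 8 of 9 promoters of measured chemokines, against 6.86% of 9261 promoters of genes compared and 6.26% of all 27305 in the table, in a window from 250 bases before to 50 after the start site. The lines give the 150 bases before the start site, 5′ to 3′ on the gene's strand, from RefSeq on GRCh38.p14, with the motif in capitals.
IL8 (chr4:73740419-73740568, plus strand): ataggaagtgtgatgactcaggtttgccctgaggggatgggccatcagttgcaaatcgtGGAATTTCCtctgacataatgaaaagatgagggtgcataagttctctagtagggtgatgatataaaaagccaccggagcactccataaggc
CXCL3 (chr4:74038690-74038839, minus strand): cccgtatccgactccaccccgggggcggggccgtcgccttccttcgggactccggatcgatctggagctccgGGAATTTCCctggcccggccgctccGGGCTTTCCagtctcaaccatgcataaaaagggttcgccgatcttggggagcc
CXCL2 (chr4:74099196-74099345, minus strand): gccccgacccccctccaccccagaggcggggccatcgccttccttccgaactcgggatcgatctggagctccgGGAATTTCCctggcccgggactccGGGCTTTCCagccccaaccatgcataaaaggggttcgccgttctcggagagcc
CXCL1 (chr4:73869243-73869392, plus strand): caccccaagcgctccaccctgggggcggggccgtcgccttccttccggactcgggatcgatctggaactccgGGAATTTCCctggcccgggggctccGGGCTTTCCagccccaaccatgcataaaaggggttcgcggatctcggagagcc
CCL20 (chr2:227813692-227813841, plus strand): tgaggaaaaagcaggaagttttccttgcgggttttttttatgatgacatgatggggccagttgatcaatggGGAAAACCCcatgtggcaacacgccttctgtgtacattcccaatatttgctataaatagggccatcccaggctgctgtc
CXCL5 (chr4:73998678-73998827, minus strand): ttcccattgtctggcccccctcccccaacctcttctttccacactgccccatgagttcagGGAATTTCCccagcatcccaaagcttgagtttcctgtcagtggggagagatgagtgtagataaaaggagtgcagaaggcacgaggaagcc

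Counting the start site as 0, the match began at -91 in IL8, -79 in CCL20 and -90 in CXCL5, and at -78 and -53 in both CXCL3 and CXCL1. CXCL1, at a log2 ratio of 0.16, held the same 2 matches as CXCL3, at 1.57, so the letters alone do not part the genes that passed the rule from those that did not. The AP-1 motif TGANTCA stood in 18 of 135 promoters of higher genes (13.3%), 3 of 42 of lower genes (7.14%), 4.61% of promoters of genes compared and 7.76% of all. Chosen after their values were seen, SERPINB2 (from -102), SPRR1B (from -141 and -111) and LAMA3 (from -125 and -69) held it, and so did IL8 (from -137). A match is a run of letters and no evidence of a bound factor.

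**Figure D4:**
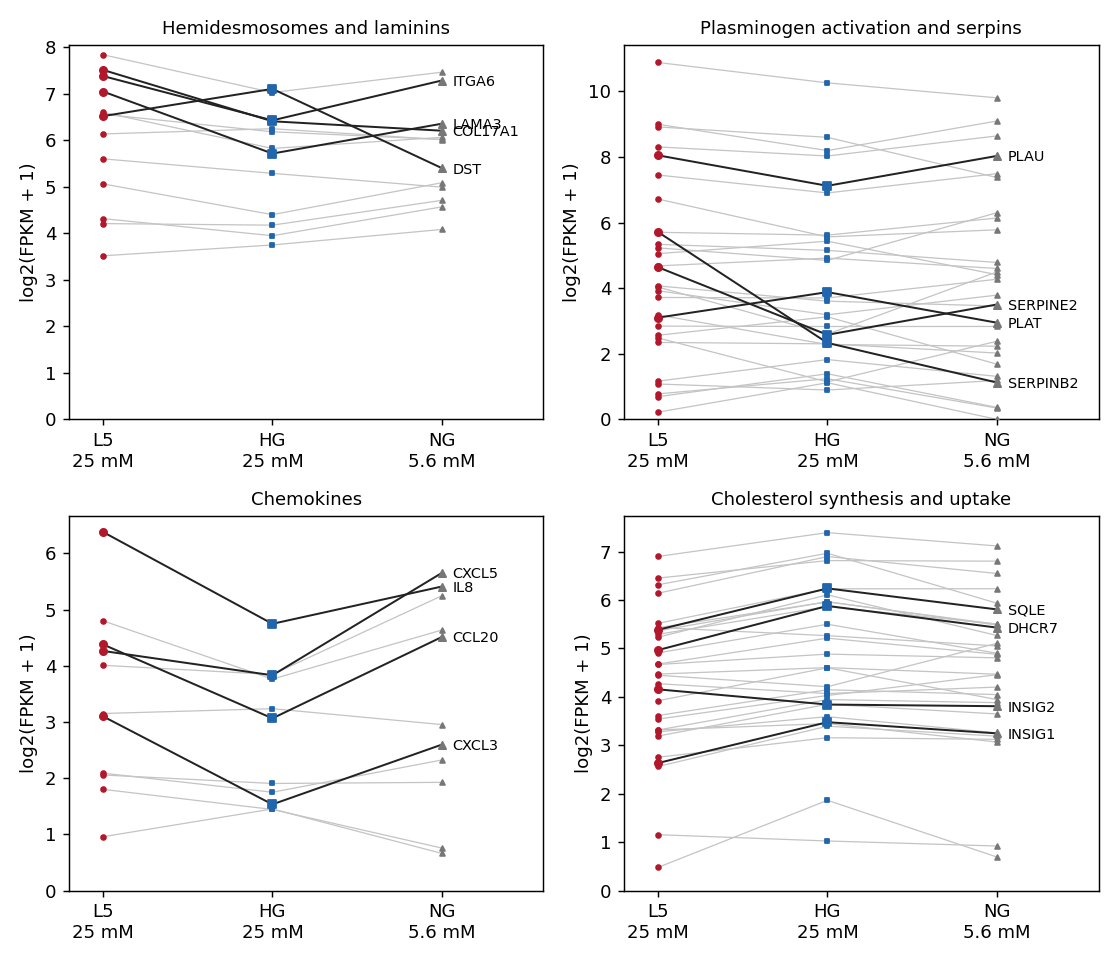
Level of each measured gene of 4 lists as log2(FPKM + 1) in L5, HG and NG (left to right), 1 library each; a line joins the values of 1 gene and 4 genes per list are labelled. IL8, LAMA3 and SERPINE2 are highest in L5, while SQLE, DHCR7 and INSIG1 are highest in HG.

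Some complement genes were lower in L5, and none of 4 measured acute phase genes passed the size rule. Of 10 measured complement genes and regulators 3 were lower and none higher, and with a pseudocount of 5 only 1 was lower. Beside the proteases C1S and C1R, neighbours on chromosome 12, C3, the central component, was listed at 0.566 FPKM in L5, 2.69 in HG and 4.80 in NG (-1.24 ± 0.15). The membrane regulator CD59 was listed at 268 FPKM in L5, 207 in HG and 288 in NG (0.38 ± 0.02), and the list's median was 0.14, or -0.19 under spike-in scaling, while its mean was -0.33. SAA1, serum amyloid A, was listed at 118 FPKM in L5, 234 in HG and 158 in NG (-0.98 ± 0.04), and its near copy SAA2 at 20.7, 37.3 and 33.6 FPKM. The acute phase list had a median of -0.41; under upper quartile scaling 1 of its genes was lower, and under spike-in scaling 2, with a median of -0.81. Of 25 NF-kB pathway genes the feedback inhibitor TNFAIP3 was the 1 past the rule, at 25.2 FPKM in L5, 11.6 in HG and 6.12 in NG (1.06 ± 0.05), although it lies on chromosome 6; under spike-in scaling none of that list was higher and 1 was lower. None of 31 interleukins and their receptors passed it; IL1B was listed at 230 FPKM in L5, 164 in HG and 60.5 in NG.

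Single enzymes of aldehyde and retinoid handling were higher in L5, while the medians of both lists lay near or below 0. ALDH3A1 was near 0 in both KKU-213 libraries, at 38.3 FPKM in L5, 0.221 in HG and 0.0791 in NG. ALDH1A3, which makes retinoic acid, was listed at 263 FPKM in L5, 121 in HG and 174 in NG (1.12 ± 0.01), and these 2 were the higher ones of 12 aldehyde dehydrogenases. That list's median was 0.01, or -0.01 under upper quartile scaling and -0.33 under spike-in scaling, where 1 gene was higher. DHRS9, a retinol dehydrogenase, was listed at 7.85 FPKM in L5, 0.192 in HG and 0.221 in NG (2.89 ± 0.08), alone among 12 retinoid genes, whose median was -0.22 and mean 0.14. Of 11 measured genes of the aryl hydrocarbon receptor pathway 8 had ratios above 0, 1 was higher, ALDH3A1, and none was lower. That list's median was 0.20, or -0.13 under spike-in scaling. Its lowest ratio was that of CYP1A1, a monooxygenase and known target of the receptor, at 1.20 FPKM in L5, 2.24 in HG and 0.335 in NG (-0.56 ± 0.11). CBR1, a carbonyl reductase, was listed at 4.15 FPKM in L5, 0.785 in HG and 0.122 in NG (1.53 ± 0.12), and AKR1C2, whose close copy AKR1C1 can share reads, at 36.9, 15.3 and 15.5 FPKM (1.22 ± 0.05). ALDH3A1, DHRS9, CBR1 and AKR1C2 were each highest in L5. Under spike-in scaling 1 gene of the list of aldo-keto and carbonyl reductases was higher, in place of 2.

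In the list of NRF2 targets and glutathione enzymes 3 of 34 were higher and 2 lower, with a median of 0.18. Under spike-in scaling 1 was higher and 2 lower, and the median was -0.22. GSTP1, a glutathione transferase, was listed at 163 FPKM in L5, 51.6 in HG and 114 in NG (1.64 ± 0.05). The cystine importer SLC7A11 was listed at 26.2 FPKM in L5, 10.0 in HG and 11.5 in NG (1.30 ± 0.03), and the peroxidase GPX2 at 79.7, 38.1 and 61.5 FPKM (1.05 ± 0.05). MGST1, a membrane-bound glutathione transferase, was lower at 50.9 FPKM in L5, 117 in HG and 143 in NG (-1.19 ± 0.05). The mitochondrial dismutase SOD2, on chromosome 6, was listed at 35.9 FPKM in L5, 76.1 in HG and 41.3 in NG (-1.06 ± 0.04). ABCA1, which exports cholesterol and lies on chromosome 9, was the 1 gene of 15 drug transporters and phase 2 enzymes past the rule, at 0.529 FPKM in L5, 2.89 in HG and 0.984 in NG (-1.35 ± 0.06).

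Genes of sterol and fatty acid synthesis stood below HG in L5. Of 31 measured genes of cholesterol synthesis and uptake 26 had log2 ratios below 0, the median was -0.53 with and without chromosomes 3, 6 and 9, and 1 passed the rule. Under spike-in scaling the median was -0.94 and 13 were lower. DHCR7, the last step of cholesterol synthesis, was listed at 30.3 FPKM in L5, 57.8 in HG and 42.1 in NG (-0.91 ± 0.05). SQLE, which makes squalene epoxide, was listed at 40.8 FPKM in L5, 74.6 in HG and 55.0 in NG (-0.86 ± 0.03), and INSIG1, a sterol sensor, at 5.21, 10.1 and 8.49 FPKM (-0.84 ± 0.06). L5 was the lowest and HG the highest library in each of these 3 genes. SREBF2, the factor that drives the pathway, was listed at 14.1 FPKM in L5, 23.3 in HG and 14.4 in NG (-0.68 ± 0.04). Of 24 promoters of the list it alone held the sterol motif TCACNCCAC, which stood in 1.06% of promoters of genes compared, and its 150 bases are shown for that reason, drawn as above.
SREBF2 (chr22:41832955-41833104, plus strand): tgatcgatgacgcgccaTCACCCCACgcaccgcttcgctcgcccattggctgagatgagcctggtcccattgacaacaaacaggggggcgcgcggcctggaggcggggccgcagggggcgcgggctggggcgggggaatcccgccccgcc

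Of 33 genes of fatty acid synthesis and handling 2 were lower and none higher, with a median of -0.15. SCD, which makes monounsaturated fatty acids, was listed at 52.9 FPKM in L5, 204 in HG and 85.0 in NG (-1.92 ± 0.02). FASN, the fatty acid synthase, was listed at 20.4 FPKM in L5, 42.3 in HG and 28.6 in NG (-1.02 ± 0.06), and its regulator SREBF1 at 10.5, 19.7 and 12.3 FPKM (-0.85 ± 0.10). In all 3 L5 was lowest and HG highest.

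Hypoxia genes had a median of -0.31, with 2 of 27 lower. DDIT4, an inhibitor of mTOR signalling, was listed at 46.7 FPKM in L5, 107 in HG and 49.3 in NG (-1.18 ± 0.03), and the oxygen sensor EGLN3 at 5.94, 13.1 and 5.45 FPKM (-1.02 ± 0.08). Glycolysis had a median of -0.16 and HKDC1, a hexokinase domain protein, as the 1 of 28 past the rule, higher at 5.71 FPKM in L5, 2.15 in HG and 11.1 in NG (1.09 ± 0.11); under spike-in scaling none of that list was higher and 3 were lower. PDK1, which slows pyruvate oxidation, was listed at 3.83 FPKM in L5, 8.21 in HG and 4.32 in NG (-0.93 ± 0.09). In DDIT4, EGLN3 and PDK1 the L5 and NG values lay together and HG above them.

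Amino acid transport and ATF4 targets were higher in 3 of 37, with a median of 0.29, or -0.13 under spike-in scaling, where none was higher. PPP1R15A, which ends the integrated stress response, was listed at 35.4 FPKM in L5, 13.0 in HG and 19.6 in NG (1.38 ± 0.04), and CHAC1, which degrades glutathione, at 2.79, 0.597 and 0.349 FPKM (1.25 ± 0.11). ASNS, asparagine synthetase, was listed at 54.8 FPKM in L5, 27.5 in HG and 24.7 in NG (0.97 ± 0.04). The third gene past the rule was SLC7A11. ATF4 itself was listed at 207 FPKM in L5, 180 in HG and 156 in NG (0.20).

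Other lists held 1 gene past the rule each. It was 1 of 11 Kruppel-like factors, 1 of 24 other growth factors and receptors, 1 of 32 interferon-stimulated genes and 1 of 23 YAP and TEAD targets. Over all genes 1.72% were higher, so 1 gene says little about its list. None of the 4 higher genes named first here was past the rule under spike-in scaling. KLF6, a zinc-finger factor, was listed at 59.1 FPKM in L5, 22.9 in HG and 22.8 in NG (1.33 ± 0.04), and PDGFA, a platelet-derived growth factor chain, at 10.2, 4.32 and 3.38 FPKM (1.08 ± 0.07). IFI44, an interferon-induced gene, was listed at 35.5 FPKM in L5, 14.8 in HG and 59.7 in NG (1.21 ± 0.07). ANKRD1, a YAP target, was listed at 1.87 FPKM in L5, 0.234 in HG and 5.24 in NG (1.22 ± 0.10). KLF6 and PDGFA had both KKU-213 libraries below L5, while IFI44 and ANKRD1 were highest in NG. The imprinted noncoding RNA H19 was lower, at 2.6 FPKM in L5, 14.8 in HG and 8.83 in NG (-2.13 ± 0.12). Lists of heat shock genes, ER chaperones, metallothioneins and iron genes held none past the rule.

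Among secreted mucosal proteins and ion transport genes a few passed the size rule. AGR2, a disulfide isomerase of mucus-secreting cells, was listed at 206 FPKM in L5, 20.8 in HG and 44.3 in NG, and SPDEF, a factor of goblet cells, at 3.60, 0.796 and 2.46 FPKM (1.36 ± 0.09); SPDEF lies on chromosome 6. These were the 2 higher genes of 7 secreted mucosal proteins, whose median was 0.003, or -0.004 under median scaling, -0.015 under upper quartile scaling and -0.40 under spike-in scaling. Of 21 carbonic anhydrases and ion transport genes 2 were higher, ANO1 and GJB2, and 2 lower, with a median of 0.04; under spike-in scaling 1 was higher and 2 lower, with a median of -0.37. The chloride channel ANO1 was listed at 40.9 FPKM in L5, 15.3 in HG and 26.8 in NG (1.36 ± 0.05). The carbonic anhydrase CA2 was lower at 5.14 FPKM in L5 than in HG at 13.2, and NG was at 0.102 (-1.21 ± 0.08). SCNN1A, a subunit of the epithelial sodium channel, was listed at 3.79 FPKM in L5, 8.82 in HG and 16.5 in NG (-1.04 ± 0.15).

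Cancer-testis genes of the X chromosome, normally active in the germ line, differed in both directions: of 16 measured 5 were higher and 4 lower, and 52 of the 68 listed were under 1 FPKM in both libraries. MAGEA11 was listed at 12.1 FPKM in L5, 0.219 in HG and 0.0371 in NG. MAGEA6 was listed at 98.1 FPKM in L5, 37.0 in HG and 15.0 in NG (1.38 ± 0.04), and its close copy MAGEA3, with which it can share reads, at 106, 61.0 and 53.5 FPKM (0.79 ± 0.03). MAGEC1 was listed at 2.27 FPKM in L5, 0.200 in HG and 0.0478 in NG (1.45 ± 0.07). The neighbours MAGEA12 and CSAG1 were lower, at 3.02 and 3.51 FPKM in L5, 11.4 and 9.36 in HG and 0.0602 and 0.221 in NG. MAGEA10 was listed at 0.594 FPKM in L5, 3.55 in HG and 0.213 in NG (-1.51 ± 0.13). The genes higher in L5 here were lowest in NG, and of the lower ones PAGE1 was highest there. SPANXB1 and SPANXD, the remaining higher ones, are copies of 1 another and their split is uncertain. Under spike-in scaling 3 genes of the list were higher and 4 lower.

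Growth genes showed no gene past the size rule in either direction: none of 26 of S phase (median -0.10), 26 of G2 and mitosis (-0.08), 31 cell cycle brakes and p53 genes (0.01), 27 of the BCL2 family and caspases (0.11) and 41 cytosolic ribosomal proteins (-0.10). Over all genes 2.23% passed the rule, so a count of none in lists of this size is near that share. Under spike-in scaling the 5 list medians were -0.49, -0.49, -0.33, -0.25 and -0.52, and 1 mitotic and 1 ribosomal gene were lower. MKI67, the proliferation marker, was listed at 49.3 FPKM in L5, 50.9 in HG and 62.0 in NG (-0.05), and CCND1, cyclin D1, at 61.6, 62.3 and 60.6 FPKM.

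Genes of whole chromosomes stood apart. The median log2 ratio was -0.31 on chromosome 6 (623 genes), -0.30 on chromosome 3 (738 genes) and 0.23 on chromosome 9 (515 genes), against -0.12 for 12 mitochondrial genes, 0.08 on chromosome 15 and 0.07 on the X chromosome, the next in order. A ratio above 0 was found in 110 genes (17.7%) of chromosome 6, 130 genes (17.6%) of chromosome 3 and 416 genes (80.8%) of chromosome 9. In stretches of 25 Mb the medians ran from -0.40 to -0.15 along chromosome 3 and from -0.39 to -0.22 along chromosome 6, so no stretch of either stood apart in sign. On chromosome 9 they were 0.08 and 0.03 over the first 50 Mb and between 0.26 and 0.39 beyond. A shift of this size seldom passes the size rule: 4 genes were higher and 6 lower on each of chromosomes 3 and 6, and 12 higher and 2 lower on chromosome 9. The part of these shifts in the results on single genes was not tested.

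**Figure D5:**
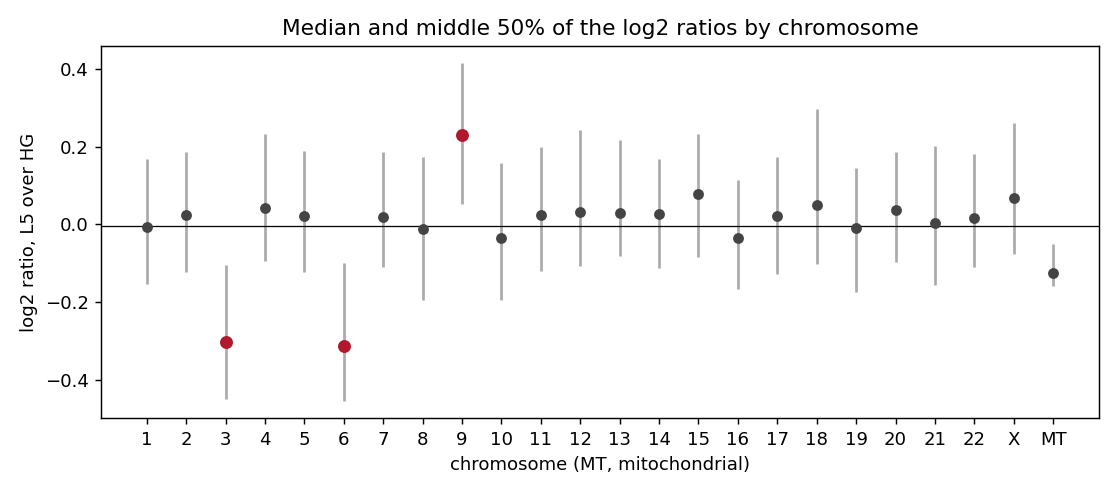
Median log2 ratio of L5 over HG (vertical) of the genes of each chromosome (horizontal), with the middle 50% of genes as lines; chromosomes 3, 6 and 9 are in red. Chromosomes 3 and 6 lie near -0.3, chromosome 9 at 0.23 and the other nuclear chromosomes between -0.04 and 0.08.

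Isoform use differed in a small share of genes. Of 5740 genes at 10 FPKM or more in both libraries with more than 1 isoform, 60 (1.05%) had an isoform whose share of the gene's FPKM differed by at least 20 percentage points. In CD82, a tetraspanin that suppresses metastasis, the transcript ENST00000227155 held 76.5% of the gene's FPKM in L5, 32.8% in HG and 60.7% in NG, while the gene itself was listed at 60.4, 58.6 and 68 FPKM. In PCDH1, a protocadherin, ENST00000394536 held 63.3% in L5, 18.0% in HG and 29.4% in NG. In NCSTN, the gamma-secretase subunit nicastrin, ENST00000294785 held 76.9% in L5, 41.8% in HG and 64.4% in NG. In ATAD3A, a mitochondrial ATPase, ENST00000536055 held 51.3% in L5, 0.541% in HG and 0.894% in NG. In EPDR1, ENST00000199448 held 35.5% in L5, 0.297% in HG and 86.6% in NG. These shares are estimates from reads that isoforms have in common, and no deposited error covers a share.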

How the data were processed

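Poly-A RNA of 3 cultures was sequenced on strand-specific libraries as paired reads, per the labels' protocols, with 1 library per group. The authors deposited FPKM per gene and isoform, with interval bounds and a status. BWA, TopHat, Cufflinks and the build GRCh37 are named, per the submitters' processing notes, without their roles, and tool versions are not given in the sources used here. The coverage (signal) values are the authors' mean read depth per transcript, per the file headers; depth was estimated from them at 200 sequenced bases to a fragment. The interval held the FPKM for 87.7% of the genes compared in L5 and 86.5% in HG.

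From the deposited FPKM a log2 ratio with a pseudocount of 1 was computed per gene. Left out were 92 spike-in sequences, 28 features listed in L5 alone, whose names had turned into dates, 741 gene IDs with another status, 12192 with no isoform of 300 bases, and 32830 under 1 FPKM in both libraries. Counting errors took an interval's relative width to each side as 2 standard errors. Genes were named by rule: 25 at each end of the ratios beyond the size rule, if they reached 5 FPKM in L5 or HG, had intervals apart from each other and carried an approved-style symbol; members of 62 gene lists; and the genes of the 10 largest isoform shifts; some are not reported. Gene coordinates are on GRCh37 and promoters on GRCh38.p14. The members, lists and tests were chosen with earlier results of these data known. The steps were tested on simulated data. Python 3.11.15, pandas 2.3.3, numpy 2.4.6 and matplotlib 3.10.9 were used.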

Additional observations from a re-analysis of the deposited data

How the results depend on the processing

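No paired analysis was possible because each group has 1 library. Against 293 genes past the size rule (226 higher, 67 lower), a pseudocount of 0.1 gave 569 (436 and 133), a pseudocount of 5 gave 75 (60 and 15), and a minimum of 5 FPKM gave 170 (134 and 36). Under spike-in scaling 89 were higher, 233 were lower and the median of all genes was -0.36. Rescaled to TPM, 313 were higher and 87 lower. Median and upper quartile scaling, separate intervals, isoform sums, main chromosomes alone, summed symbols, no filter, and, chosen after seeing the data, leaving out chromosomes 3, 6 and 9 gave between 259 and 295. Of 105 named or listed genes past the rule 51 were inside it with a pseudocount of 5 and 33 under spike-in scaling. None changed direction, but that is no check on direction. The genes were chosen for a ratio of at least 1 in size, and spike-in scaling shifts a ratio by at most 0.42. Isoform shifts numbered 149 in genes at 5 FPKM or more and 25 at 20 FPKM or more, against 60 at 10.

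The limits are those of 1 library per side: counting error is known, the spread between cultures is not. Low genes, close copies and isoform shares rest on few or shared reads.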
